A study of Mus musculus with 13 samples.

Results

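Hepatoblasts, the epithelial precursors of the fetal liver, were found among the cells of a fetal liver preparation that had been selected for F4/80, a macrophage surface protein. They were taken from the single-cell RNA-seq library by their own transcripts. For each cell, the counts of Alb, Afp, Apoa1 and Ttr were summed and divided by all counts of that cell, and a cell was a hepatoblast when at least 200 genes were detected and the sum reached 50 per 10000 counts (per10k below). The rule held for 68 of the 3093 cells with at least 200 genes, or 2.2% (95% Wilson interval 1.74 to 2.78%), among 3096 barcodes in all. The remaining 3025 cells are called the other cells. Because the rule used these transcripts and the cells came from 1 library, every single-cell value below is a description without a test, and its intervals cover counting error only.

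The study asked what the transcription factor EKLF (KLF1) does in F4/80+ macrophages of the mouse fetal liver at E13.5. The single-cell library was made from wild-type C57BL/6 littermates, whose pooled liver cells were stained for F4/80 and selected with magnetic beads, with a peptide present that blocks binding between macrophages and erythroblasts, and loaded on the Chromium 3' V3 system. In addition, 12 bulk RNA-seq libraries were made from FACS-sorted F4/80+ cells at E13.5, with 3 in each of 4 groups: EKLF+/+ (wild type), EKLF-/- (a germline null), and the EKLF/GFP+ and EKLF/GFP- fractions of fetal livers that carry GFP under the EKLF promoter, labelled C57BL/6 as well. For the EKLF-null mouse the paper lists an SvJae background. The EKLF/GFP+ RNA was prepared with a column kit and all other bulk RNA with Trizol, so that kit and GFP fraction cannot be told apart. The bulk libraries held 10695514 to 28736396 counts on genes. Hepatoblast genes can be tested in them in samples that the rule did not use, though the gene list holds the 4 genes of the rule.

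In the fetal liver, hepatoblasts line up with sinusoids and with islands of developing blood cells, and they later give rise to hepatocytes and to bile duct cells. They secrete the plasma proteins of the fetus, in particular alpha-fetoprotein (Afp), albumin (Alb), transthyretin (Ttr, a carrier of thyroid hormone and of retinol-binding protein) and the apolipoproteins of high-density lipoprotein (Apoa1, Apoa2). Their genes are kept active by a set of liver factors, among them HNF4A, the FOXA proteins, PROX1 and ONECUT proteins. Hepatoblasts are not known to carry F4/80, whose gene Adgre1 had 0.265 per10k in them and 2.50 per10k in the other cells. Droplet libraries can also hold RNA that was free in the cell suspension. Genes as specific as these can be followed in cells that do not use them. Free RNA was not measured directly, since only 3 barcodes lay under 200 genes, with 2 to 7 counts each. Free RNA, mixed droplets and other sources of such counts were not told apart.

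The summed markers were far apart in most hepatoblasts and most other cells, with a continuous tail between them. The sum ran from 55.1 to 1672 per10k in the 68 members, with a median of 400.3, and from 0 to 49.4 per10k in the other cells, with a median of 1.08. The 5 members nearest to the threshold had 55.1, 56.0, 64.2, 66.7 and 67.0 per10k. The 5 other cells nearest to it had 49.4, 47.4, 44.6, 39.0 and 35.9 per10k, so there was no gap at 50. Between 10 and 50 per10k lay 44 other cells, and 2981 other cells (98.5%) lay under 10 per10k.

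**Figure D1:**
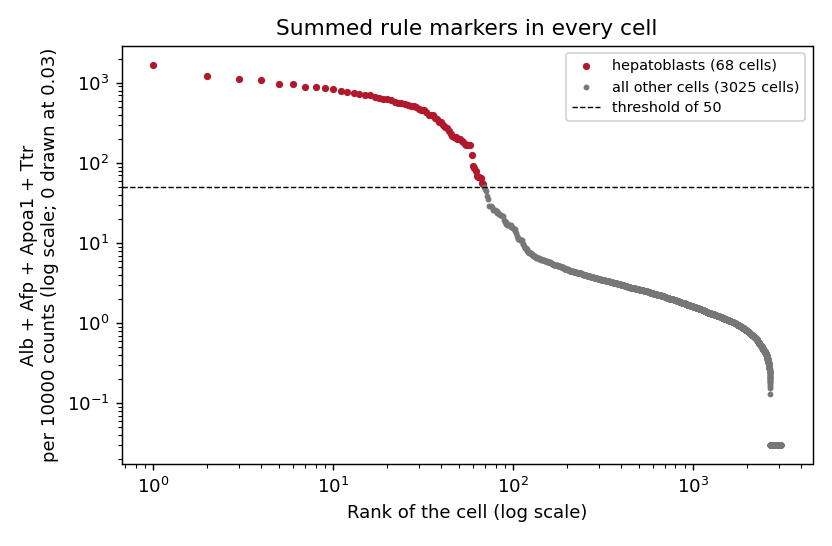
Summed Alb, Afp, Apoa1 and Ttr counts per 10000 counts (log scale) of each of the 3093 cells against the rank of the cell (log scale), with hepatoblasts in red, all other cells in grey and the threshold of 50 as a dashed line. The curve falls from 1672 to 55.1 over the 68 hepatoblasts and goes on falling without a step through the other cells, whose median is 1.08.

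The label was checked against the markers and the clusters of all cells. All 4 markers had a count in 68 of 68 members. A clustering of all cells gave 14 clusters, and 62 members lay in cluster 12, whose 10 leading genes were Alb, Rbp4, Afp, Apoa1, Fgb, Ttr, Meg3, Ahsg, Serpina6 and Serpina1b, and which is hepatoblast-like by its 4 markers. This cluster held 64 cells, and its 2 cells outside the rule had 25.7 and 22.1 per10k. Since the rule and the name of the cluster use the same 4 genes, this is no independent check of the label. The other 6 members lay in clusters 0, 8, 9, 10 and 13 and are treated separately below.

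The programme of the hepatoblasts was led by a small number of secreted proteins. Afp reached 248.9 per10k in the summed hepatoblasts (Poisson interval 246.7 to 251.0) and Alb 157.0 per10k (155.3 to 158.7), followed by Apoa2 with 114.8, Apoa1 with 81.2, Ttr with 80.3 and Rbp4, the retinol-binding protein, with 74.8 per10k. These are counts from the 3' end of transcripts, which are not divided by length. The same genes had 0.341 (Alb), 0.599 (Afp), 0.412 (Apoa2), 0.198 (Apoa1), 0.222 (Ttr) and 0.169 (Rbp4) per10k in the other cells. In single hepatoblasts Alb ranged from 9.02 to 606 per10k with a median of 102, and Afp from 22.7 to 576 per10k with a median of 202.

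Ranked by the ratio of hepatoblasts to other cells, the 20 leading genes of the 266 with at least 5 per10k all encoded proteins that the liver secretes except Meg3, a long non-coding RNA. Fgb, the beta chain of fibrinogen, led with 9.12 against 0.0164 per10k, a ratio of 555. Apob, the protein core of low-density lipoproteins, had a ratio of 533 and Fgg, the gamma chain of fibrinogen, one of 470. Alb had a ratio of 460, Kng1 (kininogen) of 446, Apoh of 443, Rbp4 of 442 and Spp2 of 437. The 20 genes, picked by this ratio, ran from 332 to 555 in ratio and from 5.15 (H2-Q10) to 248.9 per10k (Afp) in level. Serpina1a (ratio 425) and Serpina1b (ratio 378) belong to a family of near-identical copies, and how the reads were split between them is uncertain.

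**Figure D2:**
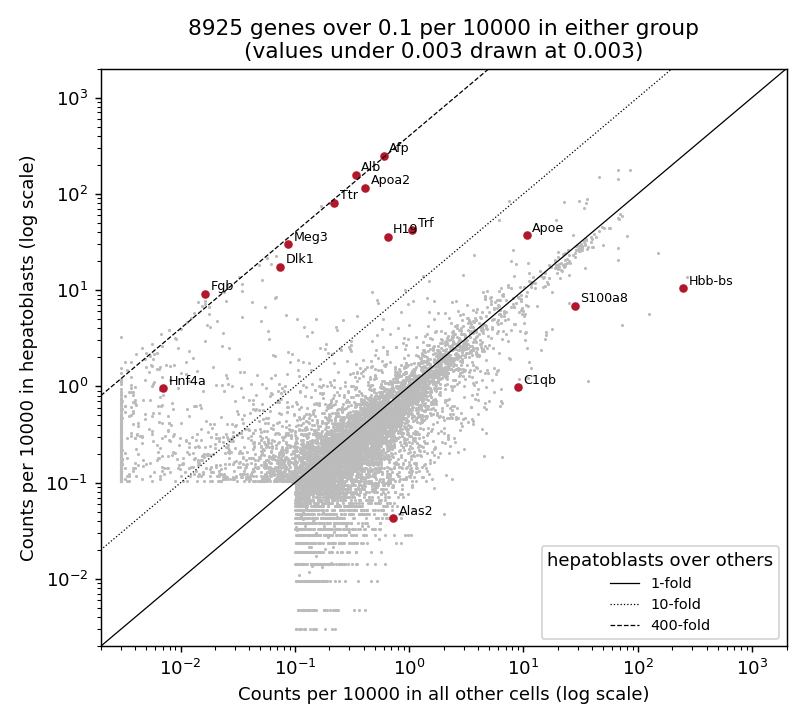
Counts per 10000 in the summed hepatoblasts (y axis, log scale) against the summed other cells (x axis, log scale) for 8925 genes, with lines at 1-fold, 10-fold and 400-fold. The plasma protein genes from Fgb (9.12 against 0.0164) to Afp (248.9 against 0.599) lie along the 400-fold line, while Trf, H19 and Apoe lie below it and Hbb-bs, C1qb and S100a8 lie under the 1-fold line.

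The bases before the start sites of 3 of these genes are shown because HNF4A binds sites that hold the letters CAAAGTC, and because these genes were high in the same cells. Each run is the 250 bases before the RefSeq start site on the strand of the gene, in build GRCm38.p6, with CAAAGTC or its reverse complement GACTTTG in capitals. Alb lies at chr5:90460620-90460869 (plus strand), Ahsg at chr16:22891765-22892014 (plus strand) and Vtn at chr11:78498870-78499119 (plus strand).
Alb: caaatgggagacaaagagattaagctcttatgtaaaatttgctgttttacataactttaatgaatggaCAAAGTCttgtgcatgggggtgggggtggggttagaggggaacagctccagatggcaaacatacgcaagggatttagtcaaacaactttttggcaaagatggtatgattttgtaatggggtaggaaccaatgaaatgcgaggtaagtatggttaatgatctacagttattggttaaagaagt
Ahsg: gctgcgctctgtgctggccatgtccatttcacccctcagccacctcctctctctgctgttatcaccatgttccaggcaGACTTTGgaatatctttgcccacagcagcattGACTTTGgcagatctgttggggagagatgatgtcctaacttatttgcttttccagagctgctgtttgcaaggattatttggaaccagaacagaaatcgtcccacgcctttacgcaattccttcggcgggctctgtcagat
Vtn: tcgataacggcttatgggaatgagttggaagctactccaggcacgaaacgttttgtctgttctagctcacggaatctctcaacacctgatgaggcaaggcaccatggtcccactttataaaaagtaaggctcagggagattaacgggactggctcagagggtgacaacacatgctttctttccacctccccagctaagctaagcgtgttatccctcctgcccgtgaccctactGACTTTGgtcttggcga
The letters began 182 bases before the start of Alb, 172 and 140 bases before that of Ahsg and 17 bases before that of Vtn. Of the 20 leading genes, 17 were matched in the RefSeq table, and these 3 of them held the letters on either strand in these 250 bases. Of 32851 such windows of all genes 3.84% held them, and of 27025 genes 4.33%. The letters TGTTTAC, part of FOXA sites, were found in 2 of the 17 genes (Apoh and Rbp4), in 3.17% of all windows and 3.54% of all genes. The letters TTGCGCAA, bound by CEBP proteins, were found in 0 of the 17 and in 0.164% of all windows. A match in these windows is a description of letters.

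Of 8925 genes with at least 0.1 per10k in either group, 6.67% were at least 10-fold higher in hepatoblasts and 2.45% at least 10-fold lower, and the median ratio of these genes was 0.793. The functional lists below were read against these shares, and nothing more is drawn from the counts, since the cells had been chosen by 4 of their genes.

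The liver transcription factors were low in level, and most were far lower still in the other cells. Of 18 factors, 14 were over 0.1 per10k and 12 of these were at least 10-fold higher. Prox1 and Onecut2 had 1.04 per10k each, Hnf4a 0.957 (202 counts in 44 of 68 cells), Creb3l3 0.819, Foxa3 0.786 and Foxa2 0.294 per10k. Hnf4a had 48 counts in all other cells together, a ratio of 136. Tbx3, which marks hepatoblasts that keep dividing, had 0.284 per10k and a ratio of 129. Hhex (ratio 1.49), Cebpa (2.79) and Gata4 (1.26) were close in both, and among the other cells the endothelial-like cluster 11 was highest for Hhex (0.935 per10k) and Gata4 (0.996 per10k). Nr0b2 had no count in any hepatoblast.

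The carriers and protease inhibitors of plasma had 18 of 18 genes over 0.1 per10k at least 10-fold higher. Ahsg (fetuin-A) had 13.6 per10k, Ambp 11.4, Serpina6 (the corticosteroid carrier) 21.5, Itih2 9.56 and Serpinf2 7.70 per10k. Trf, the iron carrier transferrin, was high at 42.0 per10k, but the other cells held 1.06 per10k, so its ratio was 39.4. Of the late plasma proteins, Fetub had 4 counts and Hrg 2 counts in all hepatoblasts together.

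Of the apolipoprotein list, 13 of 14 genes over 0.1 per10k were at least 10-fold higher, and Apoe was not. Apoc2 (22.7 per10k, ratio 332), Apom (18.9 per10k, ratio 305), Apoc4 (5.62 per10k, ratio 317) and Apob had high ratios. Apoe had 37.2 per10k in hepatoblasts and 10.6 per10k in other cells, a ratio of 3.49, with 33.6 per10k in the macrophage-like cluster 2. Apoc1 had 10.0 and 0.919 per10k, a ratio of 10.9, with 2.29 per10k in the macrophage-like cluster 1. Apoa4 had 1 count and Apoa5 had 5 counts in the hepatoblasts.

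Of 15 coagulation genes, 14 were over 0.1 per10k and 12 at least 10-fold higher, among them the 3 fibrinogen chains, F2 (prothrombin, 3.16 per10k, ratio 353), Plg (plasminogen, 4.62 per10k, ratio 404), Proc (protein C, 2.07 per10k, ratio 380) and Cpb2 (2.22 per10k, ratio 445). F9 had 4 counts. F5 (ratio 9.58), F10 (23.2) and Pros1 (0.462) were also found in blood or endothelial-like clusters, F5 at 0.558 per10k in the neutrophil-like cluster 5 and F10 at 0.782 per10k in the megakaryocyte-like cluster 10. In the complement list, 10 of 11 genes were at least 10-fold higher. The mouse C5 gene Hc (1.13 per10k, ratio 698), C8b (0.497 per10k, 847) and Cfi (2.53 per10k, 556) had high ratios. The C8b ratio rests on 4 counts in the other cells. C3 (5.39 per10k) had a ratio of 15.4, with 2.79 per10k in the neutrophil-like cluster, and C6 had no count in the hepatoblasts.

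Metabolic genes of the mature liver were present in part. In the urea cycle and amino acid list, Otc (1.62 per10k), Bhmt (1.43) and Ass1 (1.32 per10k) were found, whereas Cps1 had 6 counts, Tat 1 count, and Tdo2 and Sds none. Of the glucose and glycogen list, Gys2, the liver glycogen synthase, had 1.05 per10k. Pck1 had 1 count, and G6pc had none. Slc2a2, the hepatic glucose transporter, had 0.867 per10k. For bile acids, Cyp7a1, the rate-limiting enzyme of their synthesis, had 4 counts, Cyp8b1 5, Baat 2 and the uptake transporter Slc10a1 6 counts, while the export pump gene Abcb11 had 23 counts and Abcc2 0.639 per10k. Among detoxifying enzymes, Ugt2b34 (2.18 per10k) and Gsta3 (1.52 per10k) were found, and Cyp2e1, Cyp3a11, Cyp4a14 and Aldh1a1 had no count. For a gene without a count, the 2110972 counts of the hepatoblasts limit the level only to that of 3 counts.

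Of 10 fetal and progenitor genes 6 were at least 10-fold higher, and several bile duct genes had few counts or none. Dlk1, a surface marker of hepatoblasts, had 17.5 per10k (ratio 236) in 67 of 68 cells, Gpc3 5.24 per10k (ratio 151), Igf2 6.67 per10k (ratio 123) and the imprinted RNA H19 35.7 per10k (ratio 55.2). H19 had 13.98 per10k in the endothelial-like cluster. Cdkn1c (ratio 48.3) and Peg3 (51.8) were the other members past 10-fold. The RNA-binding protein genes Igf2bp1, Igf2bp3 and Lin28b had ratios of 1.37, 0.923 and 2.08. Mest was lower in hepatoblasts (0.166 per10k) than in the other cells (0.485 per10k). The keratins of simple epithelia Krt8 and Krt18 had 2.64 and 2.53 per10k and Cdh1 0.540 per10k. Krt19, Krt7 and Spp1, genes of bile duct cells, had no count, Sox9 had 3 counts and Epcam 1 count in the 68 cells.

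Of signals to blood cells, Kitl (stem cell factor) had 0.966 per10k against 0.0777 per10k in other cells, a ratio of 12.4, and Thpo (thrombopoietin) had 24 counts in 18 hepatoblasts against 1 count in the other cells. Epo had no count in either group. Of iron genes, Hamp (hepcidin) had 6 counts, and the iron exporter Slc40a1 was lower, with 0.947 per10k against 6.42 per10k in other cells and 18.6 per10k in the macrophage-like cluster 1. Among receptors, Gcgr (the glucagon receptor) had 52 counts in hepatoblasts and 5 in other cells, Lgr5 28 and 3, and Fgfr4 20 and 2 counts, whereas Met (0.346 per10k, ratio 6.04) and Insr (0.341 per10k, ratio 1.77) were shared and Egfr had none. The 12 cell cycle genes summed to 12.4 per10k in hepatoblasts and 20.9 per10k in other cells. Mki67 had 1.26 against 3.54 per10k and a count in 50 of 68 hepatoblasts, Top2a had 1.80 against 2.92 per10k, and Tyms was the highest relative to other cells with 1.13 against 0.926 per10k.

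The hepatoblasts covered a wide and continuous range of depths and were divided at 20000 counts, a value set after the data had been seen, into deep and shallow cells. Of the 68, 36 had 22434 to 77019 counts (median 52030, with 6549 genes) and 32 had 2961 to 18872 counts (median 8625, with 2417 genes). The other cells had a median of 18582 counts. Mitochondrial genes took 1.84 to 71.0% of the counts of a hepatoblast, with a median of 8.74%, against a median of 3.96% in the other cells. In 16 hepatoblasts they took at least 20%, and these cells had 4001 to 24109 counts. Their summed markers were 280 per10k against 594 per10k in the 52 hepatoblasts under 20%, and 459 against 646 per 10000 counts outside the mitochondrial genome.

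**Figure D3:**
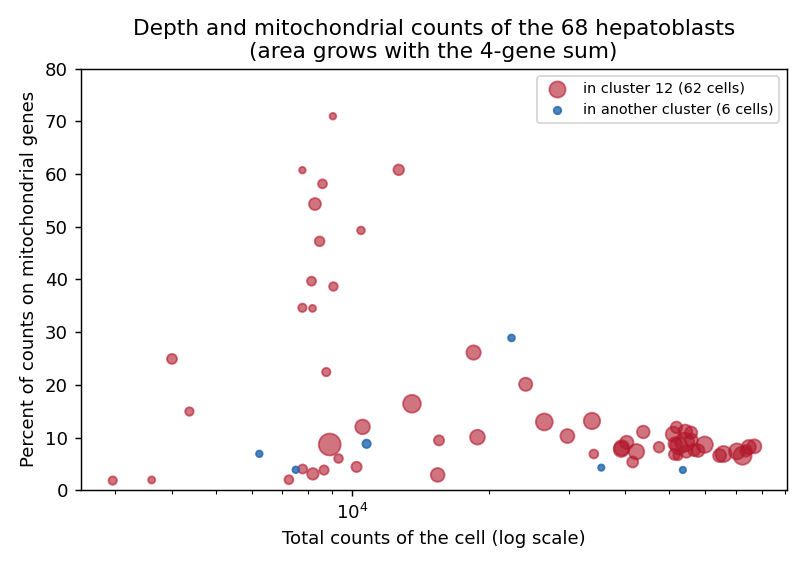
Percent of counts on mitochondrial genes (y axis) against total counts (x axis, log scale) for each of the 68 hepatoblasts, with the area of a point growing with the summed markers, 62 cells of cluster 12 in red and 6 cells of other clusters in blue. The deep cells, from 22434 to 77019 counts, lie between 3.85 and 28.9% with a median of 8.18%, and the values up to 71.0% belong to cells with fewer counts.

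The median levels of some transcripts differed between the deep and the shallow cells. Medians are given for the 36 deep cells and for the 18 shallow cells under 20% mitochondrial counts. Alb had a median of 142 per10k in deep and 57.5 per10k in shallow cells, and Apoa2 121 and 66.3 per10k. Meg3, which stays largely in the nucleus, had a median of 29.7 per10k in deep cells, where 36 of 36 had a count, and of 1.00 per10k in shallow cells, where 7 of 18 had none. The nuclear RNA Malat1 had medians of 23.1 and 3.56 per10k and Rian, an RNA of the same imprinted region as Meg3, of 9.46 and 1.64 per10k. The housekeeping gene Actb had medians of 17.3 and 33.2 per10k and Eef1a1 of 32.1 and 36.1 per10k. In the 14 shallow cells with at least 20% mitochondrial counts the medians were 0.591 per10k for Meg3, 5.29 for Malat1 and 56.9 for Alb. Summed over cells, the differences were smaller or turned. Alb had 164 per10k in deep cells and 139 in the 18 shallow cells, and Apoa2 120 and 111 per10k. Malat1 had 27.9 per10k in deep cells, 40.4 in the 18 and 32.2 in the 14 shallow cells, and Meg3 had 31.5, 11.9 and 32.7 per10k. The sums and the medians thus differ in direction for Malat1, and in the 14 shallow cells also for Meg3. Rian did so there too, with a sum of 12.1 against 9.95 per10k in deep cells and a median of 2.29 per10k. These genes were picked after their values had been seen. The highest Meg3 level of all hepatoblasts, 348 per10k, was that of a cell with 2961 counts, the shallowest hepatoblast.

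Within the hepatoblasts, the markers rose and fell together, but the rule had chosen the cells by these same values. Over the 36 deep cells Spearman's rho, given as a description over cells of 1 library that share their depth, was 0.895 for Alb and Afp, 0.895 for Alb and Apoa1 and 0.762 for Afp and Ttr. Of these cells 33 lay in cluster 12. The others, with 55.1, 56.0 and 78.9 per10k, had the lowest summed markers of the deep cells, and rho was not taken without them. The sum of 36 further hepatoblast genes, none of them used by the rule, ranged from 24.9 to 783 per10k in single hepatoblasts with a median of 293, and from 0 to 44.8 per10k in the other cells with a median of 1.74. Its rho with the summed markers was 0.954 over the 36 deep cells. The 10 genes that varied most beyond counting error were 7 mitochondrial genes (mt-Co3, mt-Co1, mt-Co2, mt-Atp6, mt-Rnr2, mt-Nd4 and mt-Nd1), the mitochondrial pseudogene Gm28437, and S100a9 and S100a8. S100a9 had a median of 0.856 per10k and a highest value of 214 per10k. That value came from 1 deep cell of cluster 12 with 65851 counts, which had 526 per10k of the 8 neutrophil markers beside 858 per10k of the rule markers. The median of the neutrophil markers over all hepatoblasts was 2.34 per10k and that of the neutrophil-like cluster 888 per10k.

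The 6 hepatoblasts outside cluster 12 had fewer hepatoblast transcripts and carried markers of other cells. Their summed rule markers were 69.2 per10k against 602 per10k in the 62 of cluster 12, and the 36 further genes 37.1 against 380 per10k. A cell in cluster 10 had 56.0 per10k with 53555 counts and 142 counts of Mpo, the myeloperoxidase of granulocyte precursors. A cell in cluster 9 had 55.1 per10k with 33 Mpo counts, and the other one there had 78.9 per10k with 58 counts of Cpa3, a mast cell protease. The remaining 3, in clusters 13, 8 and 0, had 64.2, 66.7 and 166 per10k beside 107, 49.3 and 41.9 per10k of the 12 macrophage markers. Their erythroid markers came to 610, 243 and 44.7 per10k in the same order. Hnf4a had 4 counts in 1 of the 6, 1 count in another and 0 in the remaining 4. The median doublet score of scrublet was 0.0713 in the 6, 0.0492 in all hepatoblasts and 0.0294 in the other cells, and scrublet called no cell of the library a doublet, so it removed nothing here. Whether these 6 droplets held more than 1 cell was not tested.

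Hepatoblast transcripts were found at low level in cells of every other cluster. At least 1 Alb count was present in 1364 of 3025 other cells, or 45.1% (Wilson interval 43.3 to 46.9%), Afp in 65.7%, Ttr in 32.9% and Apoa1 in 30.3%. The other cells had a median of 18582 counts and a separate median of 2 counts of the 4 rule markers. When each cell was thinned to 3000 counts, leaving out 8 shallower other cells and 1 hepatoblast, Alb was found in 10.3% (9.27 to 11.4%) of other cells and in 100% of hepatoblasts. The other cells together held 9262 counts of the 4 genes, and the hepatoblasts, with 3.01% of all counts of the library, held 92.8% of all counts of the 4 genes. The summed level was 1.36 per10k in other cells and 567 per10k in hepatoblasts, a ratio of 417.

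The composition of these counts was similar in most clusters, with some differences beyond counting error. In the hepatoblasts Alb made up 27.7% of the 4-gene counts, Afp 43.9%, Apoa1 14.3% and Ttr 14.2%. In the other cells the shares were 25.1% (24.2 to 26.0%), 44.1% (43.1 to 45.1%), 14.6% (13.9 to 15.3%) and 16.3% (15.6 to 17.1%). Over 12 clusters, without cluster 11, Alb took 22.8 to 27.8%, Afp 41.9 to 50%, Apoa1 12.6 to 16.1% and Ttr 12.3 to 19.2%. In the neutrophil-like cluster 5, which should lack all 4 genes, the shares were 25.7, 44.9, 15.5 and 13.9% from 619 counts. In the erythroid-like cluster 6 they were 27.8, 41.9, 15.03 and 15.2% from 539 counts. The interval of the Alb share covered the share in hepatoblasts in 9 of 13 clusters, these included, and lay below it in clusters 0 (22.7 to 26.9%), 1 (22.6 to 27.3%), 7 (19.2 to 26.8%) and 11 (13.6 to 22.2%). The interval of the Ttr share lay above the share in hepatoblasts in clusters 0 (14.4 to 17.9955%), 1 (14.5 to 18.6%), 7 (15.9 to 23.0%), 10 (15.1 to 22.9%) and 11 (30.03 to 40.8%). The interval of the Afp share lay above the share in hepatoblasts in cluster 9 (43.97 to 56.03%) and below it in cluster 11 (29.1 to 39.8%). Over all other cells the Alb interval also did not cover the Alb share in hepatoblasts, as the Alb share was lower and the Ttr share higher than in the hepatoblasts beyond counting error.

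**Figure D4:**
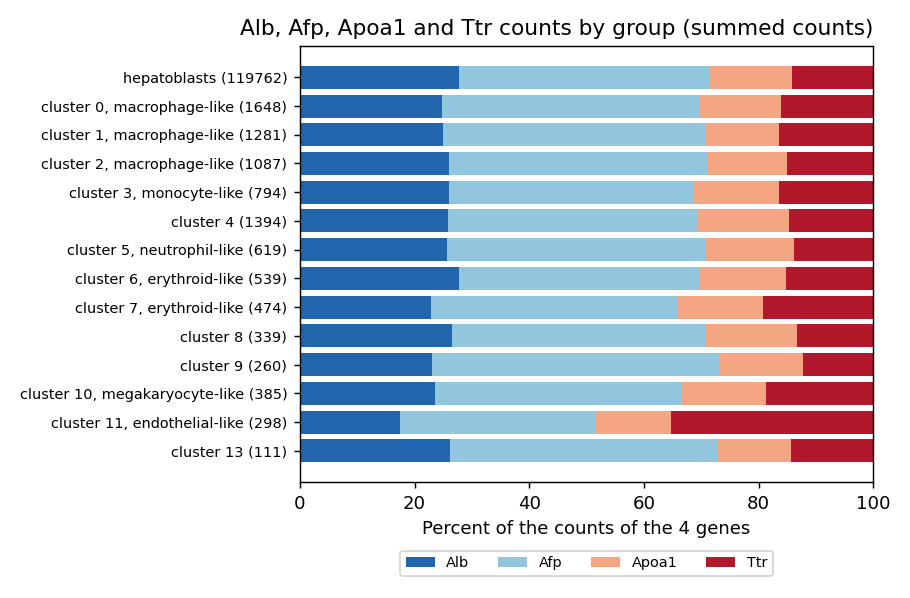
Percent of the summed counts of Alb, Afp, Apoa1 and Ttr (x axis) that came from each gene in the hepatoblasts and in the other cells of each cluster, with the number of 4-gene counts in parentheses and each cluster's class where its markers named one. Alb takes 27.7% and Ttr 14.2% in the hepatoblasts, Ttr takes 12.3 to 19.2% in 12 clusters, and the endothelial-like cluster 11 stands out with 35.2% Ttr.

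Cluster 11, endothelial-like, had 35.2% Ttr. Of its 298 counts of the 4 genes, 50 were Ttr counts of 1 cell, and without it Ttr took 22.5% (17.7 to 28.2%). That cell had 32173 counts, no Alb or Apoa1 count, 4 Afp counts, 122 Meg3 counts and no count of Kdr, Cdh5, Pecam1 or Stab2. It held transcripts of pancreatic digestive enzymes, with 43 counts of Ctrb1, 41 of Clps and 17 of Cpa1, beside 15 of Ptf1a, a pancreatic transcription factor, and 11 of Sox9. These genes were picked after their counts had been seen.

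The level of hepatoblast transcripts in other cells was lower in deeper cells. The 4 genes had 0.957 per10k in cluster 9, 1.05 in the neutrophil-like and 1.01 in the erythroid-like cluster 6, 1.24 in the macrophage-like cluster 1, and 2.25 per10k in the macrophage-like cluster 0, whose median depth was 9654 counts. The unnamed cluster 13, with a median of 5163 counts, had the highest level, 3.77 per10k. Counts per cell ranged from 2.09 (cluster 13) to 5.81 (cluster 4, median 46858 counts), where 1 cell held 397 of 1394 counts. Without that cell cluster 4 had 4.17 counts per cell, and cluster 10 was highest with 4.43. Over all 3025 other cells, those with fewer than 5000 counts held 1.90 counts of the 4 genes each, or 4.79 per10k. The value was 1.98 counts or 2.46 per10k from 5000 to 10000 counts, 2.59 or 1.74 from 10000 to 20000, 3.18 or 1.14 from 20000 to 40000, and 5.79 or 1.08 per10k above 40000. Over the 2981 other cells under 10 per10k, a limit that caps the counts of shallow cells, the lowest depth class had 0.932 counts or 2.28 per10k and the highest 4.80 or 0.900 per10k. In both sets counts per cell rose by less than depth.

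The sum of the 36 further hepatoblast genes, which were not ranked by their ratio, was 357.5 per10k in hepatoblasts and 2.06 per10k in the other cells, and 0.919 to 5.74 per10k over the 13 clusters. The 36 genes include Trf, whose level in the other cells, given above, was a large part of their sum there. The 16 leading genes outside the rule had been picked for a high ratio, which fixes its size. They summed to a level 406 times lower in the other cells than in hepatoblasts, and single genes among them had ratios of 332 to 555. By cluster, the sum was 646 times lower in the megakaryocyte-like cluster, 606 times in the erythroid-like cluster 6, 601 times in the neutrophil-like cluster, 440 times in the macrophage-like cluster 1, 280 times in cluster 0 and 146 times in cluster 13. In cluster 11 it was 78.7 times lower, and 187 times lower without Meg3, which had 2.05 per10k there. The 44 other cells between 10 and 50 per10k were not spread evenly, as 18 lay in cluster 0, 8 in cluster 13 and 0 in clusters 3, 6, 9 and 10, and their median depth was 9222 counts.

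Transcripts of other cells were in turn found in the hepatoblasts. The 4 adult globin genes had a median of 35.0 per10k in hepatoblasts, beside medians of 34.1 in the neutrophil-like cluster, 34.2 in the monocyte-like cluster 3, 31.4 in the megakaryocyte-like cluster and 3962 per10k in the erythroid-like cluster 6. Every hepatoblast held globin, from 23.6 to 605 per10k, and the highest value belonged to 1 of the 6 cells outside cluster 12. Without those 6 cells the range was 23.6 to 145.9 and the median 33.98 per10k. The 3 C1q genes had medians of 1.77 per10k in hepatoblasts, 1.62 in the neutrophil-like cluster, 1.68 in the erythroid-like cluster 6, and 57.7 per10k in the macrophage-like cluster 1. The 12 macrophage markers had a median of 4.67 per10k in hepatoblasts, against 3.93 in the neutrophil-like and 116 per10k in the macrophage-like cluster 1. All 12 macrophage markers had a count in at least 1 hepatoblast, while the 5 lymphoid markers had none. The deep hepatoblasts had 28.2 per10k of globin and 1.42 of C1q, and the shallow ones 68.5 and 8.09 per10k, the 6 cells outside cluster 12 included. Without these the deep cells had 28.1 and 1.47 per10k and the shallow ones 52.8 and 6.22 per10k.

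In the bulk libraries, a list of 40 hepatoblast genes was followed across the groups with edgeR's quasi-likelihood test over all genes. Bulk values do not tell fewer hepatoblasts from less RNA per hepatoblast. Added up, the 4 rule markers came to 1086, 927 and 1518 CPM (counts-per-million) in the wild-type libraries and to 1274, 1493 and 1254 CPM in the nulls. In the reporter libraries it was 862, 1008 and 1019 CPM in EKLF/GFP- and 964, 1389 and 600 CPM in EKLF/GFP+. The groups overlapped in both comparisons. In the single-cell library the sum was 1837 CPM over all cells and 136 CPM over the other cells, in another kind of library after another selection. Hepatoblast transcripts were present in all 12 sorted libraries. Where the labels give only a replicate number, p-values measure the spread between these samples.

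Few of these genes were called in EKLF-/-. In EKLF-/- against EKLF+/+, 36 of the 40 genes were tested, 1 was lower and none was higher at an adjusted p under 0.05, where 10.6% of all 12753 genes were lower and 9.72% higher. At an unadjusted p under 0.05, 2 were lower and 2 higher, a limit at which all genes were not counted. DESeq2 called 1 lower and 1 higher, where it called 1732 of all genes lower and 1498 higher. Their median log2 fold change was 0.18, against 0.02 for all genes. It turned to −0.03 without EKLF+/+ replicate 2 and rose to 0.42 without EKLF+/+ replicate 3. Alb had 401, 319 and 586 CPM in EKLF+/+ and 477, 543 and 453 CPM in EKLF-/-, a log2 fold change of 0.17 ± 0.21 (SE, n = 3, edgeR adjusted p = 0.555). The wild-type values spanned those of the nulls. Afp had 621, 558 and 840 CPM against 721, 847 and 729 CPM (0.19 ± 0.17, edgeR adjusted p = 0.424), and these overlapped as well. The gene that passed was Slc10a1, with 21, 16 and 11 counts in EKLF+/+ and 9, 4 and 2 counts in EKLF-/- (−1.78 ± 0.53, edgeR adjusted p = 0.0465). Its counts were near the filter, and in the single-cell library it had 6 counts in hepatoblasts and 8 in other cells.

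Groups did not overlap for 3 of the 36 genes, Slc10a1, Apob and Rbp4, beside 46.3% of all genes tested. Apob had 106, 91.1 and 168 CPM in EKLF+/+ and 85.8, 28.7 and 52.9 CPM in EKLF-/- (−1.12 ± 0.37, edgeR adjusted p = 0.0628), and every null library was lower. Rbp4 had 28.6, 30.1 and 42.9 CPM against 46.8, 61.1 and 46.0 CPM (0.60 ± 0.19, edgeR adjusted p = 0.0531), and every null library was higher. Both missed the threshold. Apob passed it under 4 alternatives and Rbp4 under 4, with edgeR or DESeq2 adjusted p down to 0.0106 and 0.0189. In EKLF-/-, 5 of 6 erythroid, 5 of 7 endothelial, 4 of 6 mesenchymal and 3 of 4 progenitor markers tested were called lower. The erythroid list holds Klf1, the gene that is null in EKLF-/-. Of 12 macrophage markers 3 were lower, and of 8 neutrophil markers 5 were higher. The part of these shifts in the hepatoblast values was not tested.

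In EKLF/GFP+ against EKLF/GFP-, 34 of the 40 genes were tested, none was lower and 1 was higher, where 25.8% of all 14259 genes were lower and 18.9% higher. At an unadjusted p under 0.05 the counts were 0 and 1, a limit at which all genes were not counted. DESeq2 called 0 in either direction, where it called 3468 of all genes lower and 3052 higher. The median log2 fold change was 0.01, against −0.01 for all genes. Alb had 393, 458 and 464 CPM in EKLF/GFP- and 447, 620 and 265 CPM in EKLF/GFP+ (0.02 ± 0.26, edgeR adjusted p = 0.962), and Ttr had 13.7, 16.3 and 12.1 against 16.3, 22.7 and 8.03 CPM (0.16 ± 0.33, edgeR adjusted p = 0.733). For both genes EKLF/GFP+ replicate 2 lay above and replicate 3 below all EKLF/GFP- libraries. The gene called was Hpd, an enzyme of tyrosine breakdown, with 0.539, 0.633 and 0.382 CPM against 1.23, 1.12 and 0.756 CPM (0.98 ± 0.32, edgeR adjusted p = 0.0379). It was the only gene of the 34 whose groups did not overlap, beside 55.7% of all genes. In this comparison all 6 monocyte and all 8 neutrophil markers were lower and all 9 erythroid and all 6 megakaryocyte markers higher in EKLF/GFP+. The erythroid list holds Klf1, whose promoter drives the GFP used for sorting. All 4 progenitor, all 3 tested lymphoid, 5 of 7 endothelial and 2 of 12 macrophage markers were also lower, and 11 of 12 cell cycle genes were higher.

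Per transcript length, the authors' TPM values were compared for 7 hepatoblast genes of the reporter libraries. Among these Afp was highest, with 353 ± 135 TPM in EKLF/GFP+ and 354 ± 58.4 in EKLF/GFP- (SD, n = 3). Alb followed with 151 ± 60.1 and 146 ± 7.75 TPM, Trf with 74.8 ± 24.3 and 87.3 ± 5.98, Apoa2 with 41.4 ± 19.5 and 41.2 ± 8.18, Rbp4 with 25.2 ± 8.35 and 24.0 ± 0.543, Apoa1 with 17.3 ± 6.18 and 19.7 ± 3.85, and Ttr with 9.40 ± 3.98 and 8.87 ± 1.30 TPM. The spread was wider in EKLF/GFP+ for each of these 7 genes. The paper reports low cell numbers for EKLF/GFP+ and lower RNA integrity than in the EKLF+/+ and EKLF-/- samples. Their part in this spread was not tested. Apoa1 and Ttr were lower relative to Alb than in the single-cell counts, and the reason was not tested.

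The extreme values of the hepatoblast genes tended to fall in the same libraries of a group, most of all in EKLF/GFP+ and EKLF+/+. In EKLF/GFP+ replicate 3 all 34 tested genes had their lowest value of the 3 EKLF/GFP+ libraries, beside 27.2% of all genes, and in replicate 2 31 of 34 had their highest, beside 31.2% of all genes. The summed 34 genes had 1414, 1990 and 866 CPM in EKLF/GFP+ and 1263, 1470 and 1498 CPM in EKLF/GFP-. In EKLF+/+ replicate 3, 34 of 36 genes had their highest value of the group, beside 37.8% of all genes, and in replicate 2 33 of 36 had their lowest, beside 35.9%. The sums of the 36 genes were 1795, 1536 and 2476 CPM in EKLF+/+ and 2057, 2374 and 2002 CPM in EKLF-/-. In EKLF-/- the highest values were divided over replicates 1 to 3 as 13, 20 and 3 of 36 genes, with 44.5% of all genes highest in replicate 2, and in EKLF/GFP- as 2, 15 and 17 of 34, beside 32.0, 35.7 and 32.3% of all genes. Lowest values also gathered there, as 24 of 34 genes were lowest in EKLF/GFP- replicate 1, beside 24.8% of all genes, and 18 of 36 in EKLF-/- replicate 3, beside 19.9%. Without EKLF/GFP+ replicate 2 the median log2 fold change of the list was −0.26 with 1 gene lower and none higher, and without replicate 3 it was 0.26 with 3 genes higher. Of all genes, 3136 were called lower and 2329 higher without replicate 2, and 3343 and 2313 without replicate 3.

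**Figure D5:**
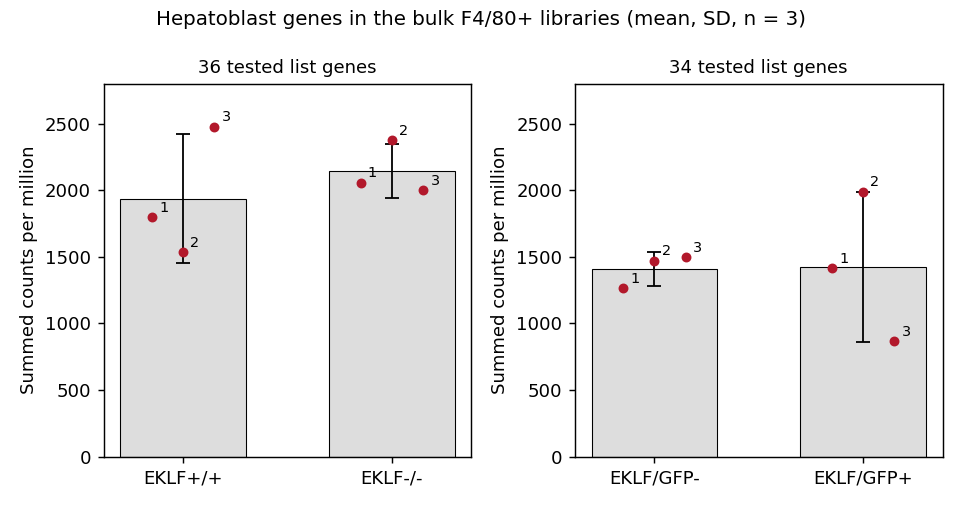
Summed CPM of the tested hepatoblast genes in each bulk library (points, labelled with the replicate number), with the group mean (bar) and SD (error bar, n = 3), for 36 genes in EKLF+/+ and EKLF-/- and 34 genes in the reporter fractions, each comparison scaled on its own. The EKLF/GFP+ libraries run from 866 to 1990 CPM, and in both panels the points of the groups overlap.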

How the data were processed

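The hepatoblasts and the gene lists were chosen with earlier results of these data known. Per the submitters' processing notes, STAR, HTSeq, Salmon, alevin, Seurat and DESeq2 were used with mm10 (GRCm38), and their versions are not given in the sources used here. The authors deposited gene counts for EKLF+/+ and EKLF-/- (27.3 to 32.8% of the counts lay on genes, the rest on rows that name no gene and were left out). They deposited estimated counts and TPM per transcript for the reporter fractions, summed here to genes and rounded, and estimated counts per cell from alevin (95.7% of values above 0 were whole). A further 5 repeated columns were not used. Some genes are not reported here.

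Cells were clustered with Seurat 5.3.0 (4000 variable genes, 30 components, resolution 0.8). Scrublet in scanpy 1.11.5 marked no cell, so doublets were not removed. Named genes were the 20 with the highest ratio among those with at least 5 per10k, the 10 with the most variation beyond counting error, and the lists. Ratios against fewer than 3 counts used a floor of 3 counts. Bulk genes were tested with edgeR 4.0.16 (quasi-likelihood, TMM, minimum count 10) in R 4.3.3, with Benjamini-Hochberg adjustment over all genes, separately in each comparison, and with DESeq2 1.42.0 as an alternative. With 3 against 3 libraries, an exact permutation test cannot go below 0.1. The edgeR test was also run on simulated counts with 200 changed genes. In the EKLF-/- comparison 188 of 197 changed genes tested were recovered, with 13 false calls. In the reporter comparison it was 178 of 192, with 20 false calls.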

Additional observations from a re-analysis of the deposited data

How the results depend on the processing

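The number of hepatoblast genes called in EKLF-/- was 1 by edgeR's quasi-likelihood test, 2 by DESeq2, 3 with no filter and 0 with at least 10 counts in every library. All genes called lower and higher numbered 1732 and 1498 by DESeq2, 1543 and 1302 with no filter, and 1245 and 1121 with at least 10 counts. With the replicate number as a block it was 2 of the list, both lower, where 1037 of all genes were lower and 864 higher. Same-numbered samples did not deviate together (correlations of -0.019 to 0.019, and of -0.148 to 0.019 in the reporter libraries), so the numbers were not taken as pairs. Some reporter libraries of unlike number had higher values. These were 0.132 for EKLF/GFP- 1 and EKLF/GFP+ 3, 0.185 for EKLF/GFP- 2 and EKLF/GFP+ 1, and 0.224 for EKLF/GFP- 3 and EKLF/GFP+ 2. Whether these shared livers was not tested. Leaving out 1 library gave 0 to 4. In EKLF/GFP+ the count of 1 became 0 with DESeq2 and 0 with at least 10 counts in every library, and 0 to 3 without 1 library. All genes called lower and higher there numbered 3468 and 3052 with DESeq2 and 3300 and 2502 with at least 10 counts. Without 1 library they numbered 2822 to 3457 and 1917 to 2787. Slc10a1 no longer passed without EKLF-/- replicate 2 (edgeR adjusted p = 0.0693) or replicate 3 (0.124), and was not tested without EKLF+/+ replicate 1, 2 or 3 or with at least 10 counts in every library, where it did not pass the filter. Hpd no longer passed with DESeq2 or without any 1 of 5 libraries (0.0517 to 0.110), and was not tested with at least 10 counts in every library. The cause of these changes was not tested. The summed level of the 36 genes outside the rule was 357.5 per10k, 382.5 at a threshold of 100, 330.5 at 25 and 294.5 as the mean over cells. After seeing the data it was also taken without the 6 members outside the cluster (379.5) and without those at or over 20% mitochondrial counts (374.1). The share of other cells with an Alb count fell from 45.1 to 10.3% on thinning to 3000 counts. All genes called lower and higher in EKLF-/- numbered 575 to 1889 and 346 to 1730 without 1 library. Slc10a1 and Hpd kept their direction under the 7 and 10 alternatives in which they were tested, but values near 0 turned. Without EKLF+/+ replicate 2 the list median in EKLF-/- turned from 0.18 to −0.03 and Alb from 0.17 to −0.03, and without EKLF/GFP+ replicate 2 the list median turned from 0.01 to −0.26 and the 1 gene called was Trf, lower by edgeR (−0.58, adjusted p = 0.03002).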

Other observations

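Another cell outside the rule, in the unnamed cluster 4, had 88920 counts, of which 99 were Alb, 195 Afp, 68 Apoa1 and 35 Ttr, or 44.6 per10k. It had 23 H19 counts, 6 Klf1 counts and no Hnf4a count. It held 397 of the 1394 counts of the 4 genes in that cluster.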
